A study of Mus musculus with 38 samples.

Results

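The genes examined here write, maintain or read DNA methylation in the mouse: the methyltransferases Dnmt1, Dnmt3a and Dnmt3b, their cofactors Dnmt3l and Uhrf1, and the methyl-CpG binding domain genes Mbd1, Mbd2, Mbd3 and Mbd4. Members were chosen by name, with earlier results of these data known. Every probe was taken whose gene name in the array files is one of these symbols or an older synonym of it. The rule found 9 of the 28786 gene names, with 15 of the 41174 probes. Dnmt1, Dnmt3b, Dnmt3l, Mbd3 and Mbd4 have 1 probe each, Uhrf1 and Mbd2 have 2 each, and Dnmt3a and Mbd1 have 3 each.

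DNA methylation at CpG sites is laid down by the de novo methyltransferases Dnmt3a and Dnmt3b, with Dnmt3l as a partner that has no catalytic activity of its own. When DNA replicates, the new strand is unmethylated, and Uhrf1 recognises the hemimethylated sites and brings in Dnmt1, which copies the pattern, so both genes are typically expressed in dividing cells. Mbd1 and Mbd2 bind methylated CpG and recruit repressors, Mbd2 and Mbd3 are alternative subunits of the NuRD chromatin remodelling complex, mammalian Mbd3 binds methylated CpG poorly, and Mbd4 is a glycosylase that repairs mismatches arising when methylcytosine or cytosine is deaminated.

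The study profiled mouse mammary tumors on 38 two-color arrays, 22 in a progression experiment and 16 in a chemotherapy experiment. Hyperplasias were taken from female mice of 3 weeks that carried both MMTV-PyMT and actin-GFP, and were grafted into fat pads, cleared of their own gland, of female wild-type FVB/n hosts of the same age. In MMTV-PyMT the promoter of mouse mammary tumor virus drives polyoma middle T, an oncogene, in the mammary gland. GFP was driven by an actin promoter, so GFP marked cells that came from the donor gland, whatever their type. Every value is the log2 ratio of sample to a Universal mouse reference RNA on the same array, so a value of 0 means equal signal, and levels of different probes are not set against each other.

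The progression experiment held sorted GFP-positive cells, with RNA amplified in 2 rounds. Adenomas (n = 5) were outgrowths at 5 weeks after transplant and carcinomas (n = 6) outgrowths at 18 weeks. Disseminated cells (n = 6) came from the lungs of mice that still bore tumors at 18 weeks, with 3 to 6 mice pooled per sample. Metastases (n = 5) came from lungs of mice whose primary tumor had been removed at 18 weeks, usually 8 to 10 weeks after that surgery. The chemotherapy experiment held untreated tumors (n = 6), residual tumors (n = 6, called regressed in the labels) and relapsed tumors (n = 4, called resistant in the labels), and according to the methods its GFP-positive cells were sorted as well. Treated mice received docetaxel, doxorubicin and cyclophosphamide every 21 days from week 8 after transplant. Residual tumors were taken 10 days after dose 1 and relapsed tumors 10 days after dose 4. The replicates are samples that the labels list separately, and for most groups it is not stated that each came from another mouse, so p-values measure the spread between these samples.

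Some arrays stood apart from their group. The median correlation with the other arrays of the group was 0.768 for carcinoma replicate 6, 0.773 for disseminated replicate 4, 0.685 for disseminated replicate 6 and 0.782 for metastases replicate 4, and the calls were repeated without these 4 arrays. The mean of 15 macrophage genes was 4.99 in carcinoma replicate 6 against at most 0.93 in the other carcinomas, lay between 3.38 and 5.02 in disseminated cells and between 1.0 and 5.23 in metastases, and was at most 0.73 in adenomas. Of these 15 genes, 13 were higher in disseminated cells and 10 in metastases than in adenomas, and Itgam was well above background in no adenoma. The mean of 16 mammary epithelial genes lay between 2.91 and 3.46 in adenomas and between 2.12 and 3.45 in carcinomas, fell to 0.16 in disseminated replicate 3 and to 0.30 in metastases replicate 4, and Pgr was well above background in no adenoma, carcinoma or metastasis. Adenoma and disseminated arrays shared 3 slides, carcinoma and metastasis arrays shared another 3, and each set was scanned on its own day. Metastases against carcinomas and disseminated cells against adenomas can therefore be compared within slides, whereas in the other progression comparisons stage and scan day cannot be told apart.

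Promoter windows, each at a single listed start site, are shown for Dnmt1 and Uhrf1 because both genes were lower in each later stage than in adenomas. That of Mbd3 is shown because Mbd3 moved the other way. Each is a RefSeq window of GRCm38.p6 (probe positions below are those of the older build mm7), 300 bases from 250 before the annotated start to 50 after it, written 5′ to 3′ along the gene. Capitals mark the letters TTTCCCGC, TTTCGCGC, TTTGCCGC and TTTGGCGC, which E2F factors of the cell cycle are known to bind, and CCAAT, the site of NF-Y, on either strand, so that ATTGG is CCAAT read from the other strand.
Dnmt1, chr9:20952574-20952873, minus strand: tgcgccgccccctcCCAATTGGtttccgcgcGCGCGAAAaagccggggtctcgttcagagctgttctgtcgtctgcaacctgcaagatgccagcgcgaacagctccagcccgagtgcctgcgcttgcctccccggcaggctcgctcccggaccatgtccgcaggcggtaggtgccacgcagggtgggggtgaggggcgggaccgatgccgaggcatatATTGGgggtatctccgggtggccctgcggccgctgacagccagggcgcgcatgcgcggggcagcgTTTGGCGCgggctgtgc
Uhrf1, chr17:56304063-56304362, plus strand: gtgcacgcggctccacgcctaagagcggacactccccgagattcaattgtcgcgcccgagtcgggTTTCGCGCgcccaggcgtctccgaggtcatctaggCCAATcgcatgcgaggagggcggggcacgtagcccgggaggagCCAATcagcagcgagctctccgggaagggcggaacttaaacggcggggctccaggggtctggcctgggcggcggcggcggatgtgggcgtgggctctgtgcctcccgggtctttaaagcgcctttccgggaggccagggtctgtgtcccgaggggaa
Mbd3, chr10:80399482-80399781, minus strand: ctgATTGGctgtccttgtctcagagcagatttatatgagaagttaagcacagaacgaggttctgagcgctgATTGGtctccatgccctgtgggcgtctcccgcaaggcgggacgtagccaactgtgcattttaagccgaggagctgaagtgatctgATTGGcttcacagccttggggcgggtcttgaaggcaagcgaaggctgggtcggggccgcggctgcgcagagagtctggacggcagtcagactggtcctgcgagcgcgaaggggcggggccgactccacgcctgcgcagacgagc

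The Dnmt1 window holds the E2F letters 2 times, TTTCGCGC on the other strand at position -219 and TTTGGCGC at 34, with the annotated start counted as 1, and CCAAT 3 times, at -236, -233 (overlapping the first, on the other strand) and -32. The Uhrf1 window holds TTTCGCGC at -185 and CCAAT at -150 and -107. The Mbd3 window holds CCAAT 3 times and none of the E2F letters. Any of the E2F letters occur in 2.26% of the 32851 promoter windows of the table and CCAAT in 37.4%, and 0.96% hold both. The Dnmt1 and Uhrf1 windows each hold 33 CpG sites and that of Mbd3 holds 22, against a median of 7 over all windows. RefSeq lists further start sites for Dnmt1 and Uhrf1 (3 windows for Dnmt1 and 2 for Uhrf1), and the E2F letters are in only the window shown of each. The shares above are per window, whereas for these genes 1 of several windows is shown. The other windows lie upstream, at chr9:20952930-20953229 and chr9:20959839-20960138 for Dnmt1 and at chr17:56303087-56303386 for Uhrf1. In that order they hold CCAAT 0, 5 and 3 times. Bases of the windows shown, also those before their start, can therefore lie within transcripts from these other starts. The windows of Dnmt3a, Dnmt3b and Dnmt3l hold neither the E2F letters nor CCAAT. That of Mbd4 holds CCAAT 2 times and none of the E2F letters. Windows of Mbd1 and Mbd2 were not read. A match of letters is a description of the window and shows no binding.

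Across progression, Dnmt1 and Uhrf1 were lower in each later stage than in adenomas and Mbd4 in carcinomas and metastases, whereas Mbd3 and 1 probe each of Mbd2 and Mbd1 were higher in metastases than in any other stage. A probe was called at an adjusted p below 0.05 in limma. In carcinomas against adenomas 5 of the 15 probes were called, all lower, where 11.5% of all probes were called and 5.23% were called lower. In disseminated cells against adenomas 4 were called, all lower, against 18.2% of all probes (10.6% lower). In metastases against adenomas 8 were called, 3 higher and 5 lower, against 27.5% of all probes (13.1% higher and 14.4% lower). Disseminated cells and carcinomas differed at 2 probes, a share of 13.3% of the members against 24.7% of all probes. Metastases were higher than carcinomas at 3 probes, a share of 20% against 21% of all probes, and 8.97% of all probes were higher. Metastases and disseminated cells differed at 4 probes, 3 higher and 1 lower, against 12.9% of all probes (6.94% higher and 5.94% lower). The counts for disseminated cells depended on disseminated replicate 4, without which 7 probes were called against adenomas and 4 against carcinomas, and without all 4 arrays that stood apart they were 9 and 5. The median change of the 15 probes was -0.44, -0.16 and -0.57 in carcinomas, disseminated cells and metastases against adenomas, beside 0.05, -0.01 and 0.02 for all probes. These 3 comparisons share the adenoma arrays, so their values are not independent of each other. Of the called probes, all changed at least 2-fold in 5 of these 6 comparisons and 4 of the 5 did so in carcinomas against adenomas, where the change of Dnmt1 was just under 2-fold. Of all probes, 3.35% in carcinomas, 9.2% in disseminated cells and 13.9% in metastases were called with such a change against adenomas. The share was 10.5% in disseminated cells and 9.81% in metastases against carcinomas, and 6.94% for metastases against disseminated cells.

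**Figure D1:**
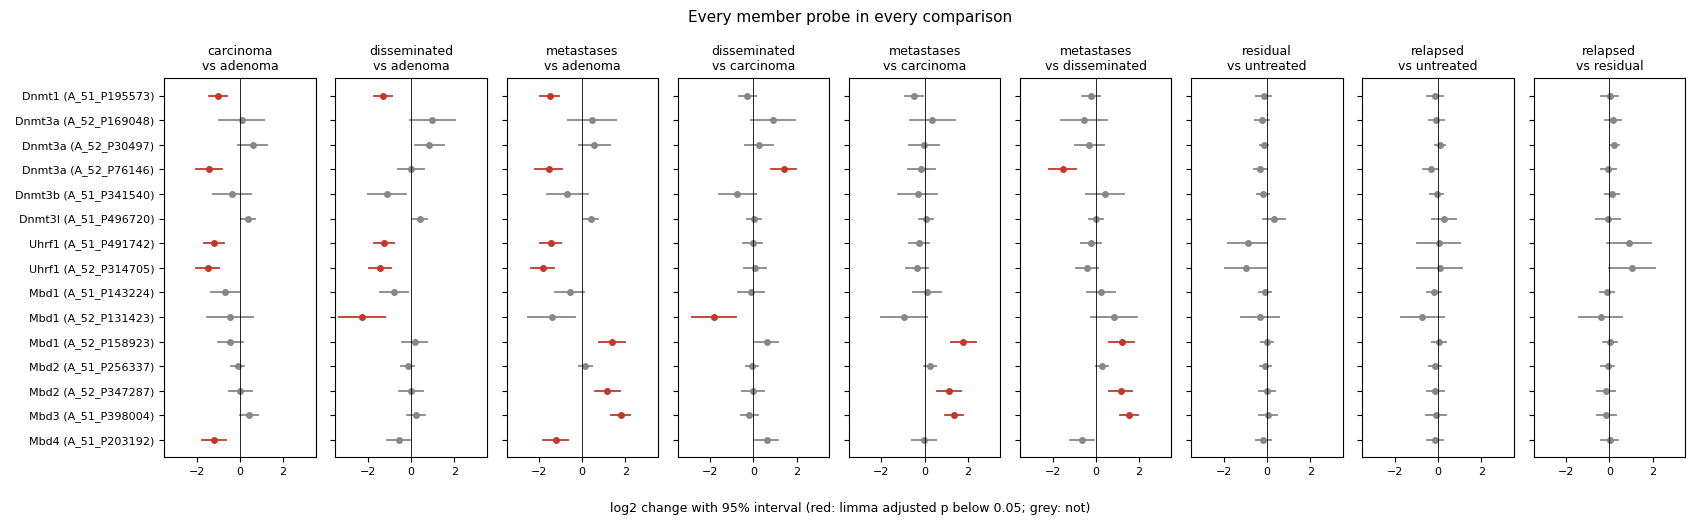
Log2 change (x axis, log2 scale) of each of the 15 member probes (rows) in the 9 comparisons (panels), as a point with its 95% interval, red where limma's adjusted p was below 0.05 and grey elsewhere. Red points lie left of 0 for Dnmt1 and Uhrf1 in the 3 comparisons with adenomas and right of 0 for Mbd3 in the 3 comparisons of metastases, and the 3 chemotherapy panels hold none.

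Dnmt1, the maintenance methyltransferase, was near the reference in adenomas and below it in every later sample. Its probe (A_51_P195573, mm7 chromosome 9, 20784085 to 20784453 on the minus strand) read -0.06, 0.00, -0.23, -0.37 and -0.37 in the 5 adenomas. The 6 carcinomas lay between -1.61 and -0.91 (median -1.18), and the 6 samples of disseminated cells between -2.25 and -0.90 (median -1.42). The 5 metastases read -1.53, -1.60, -1.72, -2.17 and -1.53. No adenoma overlapped any later group, whereas carcinomas, disseminated cells and metastases overlapped one another. The change from adenoma was -1.0 (SE 0.20, limma adjusted p = 0.0039) in carcinomas and -1.29 (SE 0.20, adjusted p = 0.000578) in disseminated cells. In metastases it was -1.51 (95% interval -1.94 to -1.07, adjusted p = 6.01e-05), a 2.84-fold lower ratio. Among the later stages the order of the means was carcinoma, disseminated cells, metastases, and no pair of these passed the test. Disseminated cells differed from carcinomas by -0.29 (adjusted p = 0.292) and metastases from disseminated cells by -0.22 (adjusted p = 0.542). Metastases differed from carcinomas by -0.51, with an adjusted p of 0.0804 (0.0419 when only these groups were fitted), and within the 3 shared slides this difference ran from -0.72 to -0.34. It passed the test without carcinoma replicate 6 (-0.59, adjusted p = 0.0416). Disseminated cells were below adenomas within each of their 3 shared slides, by values from -1.87 to -0.85. The falls in carcinomas and metastases run across the scan days, so stage and scan day cannot be told apart there. In bulk RNA of this kind, fewer cells of a type and less RNA per cell cannot be told apart.

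Uhrf1, which recruits Dnmt1 to hemimethylated sites, was also lower in each later stage, and at both of its probes the mean was highest in adenomas and lowest in metastases. The first (A_51_P491742, mm7 chromosome 17, 54481380 to 54481439, plus strand) read -0.82, -1.31, -0.69, -1.37 and -0.36 in adenomas and between -2.41 and -1.71 (median -2.14) in carcinomas. Disseminated cells lay between -2.78 and -1.69 (median -1.97), and metastases read -2.31, -2.56, -2.36, -2.64 and -1.95. Again the adenomas stood above all later samples and the later stages overlapped. The second probe starts 103 bases further on (A_52_P314705, 54481483 to 54481542) and read -1.41, -1.82, -0.95, -1.80 and -0.67 in adenomas, against a range over all later samples of -3.53 to -2.27. The change from adenoma at the first probe was -1.21 in carcinomas, -1.23 in disseminated cells and -1.46 in metastases (SE 0.22 to 0.23, limma adjusted p = 0.00205, 0.00147 and 0.000175). At the second it was -1.5, -1.42 and -1.83 (SE 0.25 to 0.26, adjusted p = 0.00097, 0.00114 and 6.22e-05). The fall was steeper at the second probe in each comparison with adenomas, by 0.19 to 0.38 on the log2 scale (exact permutation tests, adjusted p of at most 0.0396 over 48 probe comparisons), although the probes had a correlation of 0.991 over the 22 arrays. Within the 3 slides shared with adenomas, disseminated cells were lower by values from -1.93 to -0.72 at the first probe and from -2.11 to -0.84 at the second. As for Dnmt1, the falls in carcinomas and metastases run across the scan days.

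**Figure D2:**
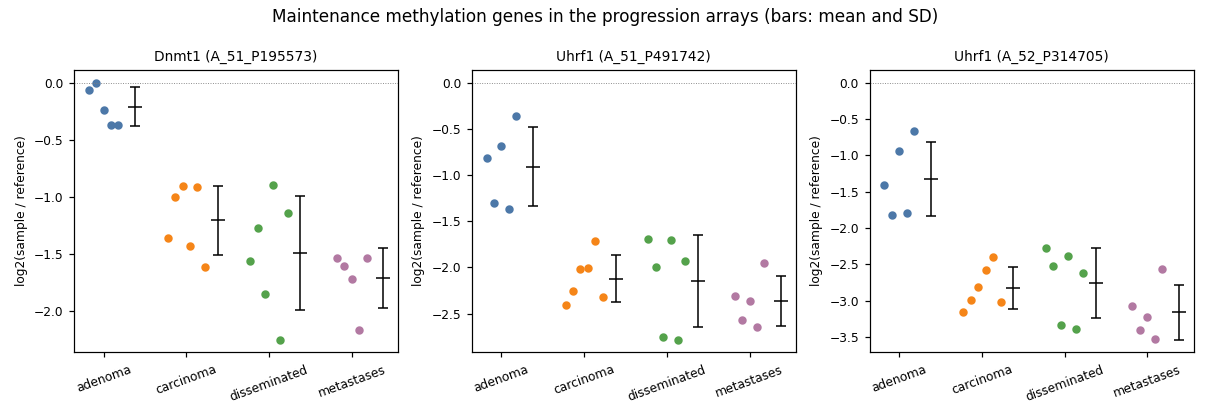
Log2 ratio of sample to reference (y axis, log2 scale) of Dnmt1 and the 2 Uhrf1 probes in the 4 progression groups. Points are arrays and bars the mean and SD. The 5 adenomas lie above every later sample in each panel, with mean ratios of -0.21, -0.91 and -1.33, and the 3 later groups overlap.

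Neither fall rested on the arrays that stood apart. Without the 4 arrays, Dnmt1 changed by -0.92 in carcinomas, -1.53 in disseminated cells and -1.39 in metastases against adenomas (limma adjusted p = 0.00184, 9.15e-06 and 2.53e-05). The order of the later stages turned there, with disseminated cells lowest, and both disseminated cells (-0.61, adjusted p = 0.0103) and metastases (-0.47, adjusted p = 0.0467) were called below carcinomas. With all arrays in the fit, none of the 15 macrophage genes and none of the 16 mammary epithelial genes was called between carcinomas and adenomas. The macrophage mean was 0.52 (SD 0.28) in adenomas and 1.14 (SD 1.93) in carcinomas. In the same comparison 3 of 10 T and NK cell genes and 2 of 8 fibroblast genes were lower. Of 9 endothelial genes 2 and of 7 alveolar macrophage genes 1 were higher, beside 11.5% of all probes called. In disseminated cells 13 macrophage, 7 of 9 neutrophil, 7 of 9 endothelial and 5 of 9 lung epithelial genes were higher than in adenomas. So were 2 of 10 T and NK cell genes and 1 of 6 B cell genes. Lower were 2 mammary, 1 lung epithelial, 1 fibroblast and 1 T and NK cell gene, and 18.2% of all probes were called. All 7 alveolar macrophage genes were higher there too, with a list mean of 4.44 against -0.08 in adenomas. The part of these cell type markers in the Dnmt1 and Uhrf1 values was not tested.

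Genes of the cell cycle were lower in the same samples. Of 29 genes with roles in replication and mitosis, 12 were called lower in carcinomas, 17 in disseminated cells and 19 in metastases than in adenomas, and none was called higher. Of all probes, 5.23, 10.6 and 14.4% were called lower in these comparisons. Those of carcinomas and metastases with adenomas run across the scan days. In metastases against carcinomas, which shared slides, 2 of the 29 were lower, against 12.1% of all probes. Their mean log2 ratio was -1.41 in adenomas (SD 0.35), -2.08 in carcinomas (SD 0.23), -2.35 in disseminated cells (SD 0.34) and -2.35 in metastases (SD 0.50). Top2a, the topoisomerase of dividing cells, fell by 1.31 in carcinomas and 1.84 in metastases. Tyms, which makes thymidylate for DNA synthesis, fell by 1.76 in disseminated cells (limma adjusted p = 0.000799). After the group means were subtracted, the second Uhrf1 probe had a correlation of 0.841 with this mean over the 22 arrays, and Dnmt1 one of 0.469. Without that subtraction the values were 0.893 for Uhrf1 (Spearman 0.818, and 0.816 without the 2 arrays whose cell cycle mean lay farthest from the median) and 0.80 for Dnmt1 (Spearman 0.733, and 0.756 without those 2). The arrays share a reference RNA and a normalization, so these correlations are descriptions.

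**Figure D3:**
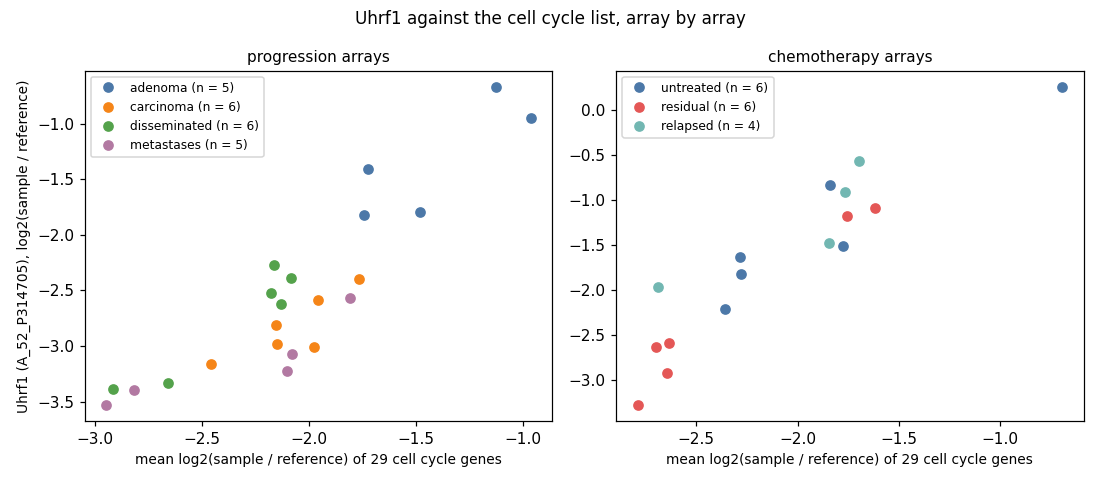
Log2 ratio of the second Uhrf1 probe (y axis) against the mean log2 ratio of 29 cell cycle genes (x axis), one point per array, colored by group, in the 22 progression arrays (left) and the 16 chemotherapy arrays (right). In both panels arrays with higher cell cycle means have higher Uhrf1, with correlations after removal of group means of 0.841 and 0.941.

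The genes whose pattern over the 22 progression arrays was most like that of a member were sought for Dnmt1 and Uhrf1 among 17677 probes well above background on every one of these arrays. For the second Uhrf1 probe they were Tpx2 (correlation 0.922), Kif4 (0.911), Ska1 (0.906), Kif20a (0.899) and 5730507H05Rik (0.896). Over the 16 chemotherapy arrays, which were not used to choose them, their correlations with Uhrf1 were 0.902, 0.843, 0.874, 0.867 and 0.919. For Dnmt1 they were Tceal9 (0.951), Mfn1 (0.929), LOC382639 (0.928), ENSMUST00000079391 (0.928) and Tuft1 (0.923). In the chemotherapy arrays the first and second of these had correlations of at least 0.61 with Dnmt1, and the other 3 lay between -0.323 and -0.033. Dnmt1 and the second Uhrf1 probe had a correlation of 0.854 with each other in the progression arrays, and 0.482 after the group means were subtracted.

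Among the de novo writers, 1 of the 3 Dnmt3a probes was called, and its values split by the day of scanning. This probe (A_52_P76146, mm7 chromosome 12, 3825243 to 3826024, plus strand) read 1.15, 1.29, 2.15, 1.97 and 1.15 in adenomas and between 0.89 and 2.59 (median 1.44) in disseminated cells. Carcinomas lay between -0.25 and 0.74 (median -0.02) and metastases read -0.25, -0.17, -0.08, 0.79 and -0.35. All 11 arrays of the adenoma and disseminated slides, at 0.89 to 2.59, lay above all 11 of the carcinoma and metastasis slides, at -0.35 to 0.79. The 4 comparisons across the 2 sets of slides were called, with changes of -1.41 for carcinomas and -1.56 for metastases against adenomas (limma adjusted p = 0.00458 and 0.000939). The change was 1.39 for disseminated cells against carcinomas and -1.54 for metastases against disseminated cells (adjusted p = 0.00153 and 0.00219). Within slides, disseminated cells differed from adenomas by values from -0.35 to 0.08, and metastases from carcinomas by -0.42 to 0.09, so stage and scan day cannot be told apart for this probe.

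The other Dnmt3a probes did not share this pattern. The probe that starts 1359 bases away (A_52_P169048, 3826602 to 3826661) had means of 0.14, 0.23, 1.13 and 0.59 in adenomas, carcinomas, disseminated cells and metastases, and ran from -1.18 to 2.35 among disseminated cells. That at 3830965 to 3831024 (A_52_P30497) had means of 0.04, 0.63, 0.89 and 0.60. Neither was called in any comparison, although A_52_P30497 was called higher in disseminated cells than in adenomas (0.96, adjusted p = 0.0426) with Aquantile or with no normalization between arrays. Without disseminated replicate 4, the lowest disseminated sample at both probes, disseminated cells were called higher than adenomas at both (1.45 and 1.03, limma adjusted p = 0.012 and 0.0257), and A_52_P169048 was also called higher than in carcinomas (1.36, adjusted p = 0.0112). Between pairs of Dnmt3a probes, 6 of 18 exact permutation tests passed at an adjusted p below 0.05 over the 48, all of them against the first probe. The correlations between the 3 probes over 22 arrays were 0.756, 0.174 and 0.027, so no single direction is given for Dnmt3a. Dnmt3b, the second de novo enzyme (A_51_P341540, chromosome 2, 153428204 to 153428263, plus strand), had means of 1.23 (SD 0.96) in adenomas, 0.86 (SD 0.41) in carcinomas, 0.11 (SD 0.96) in disseminated cells and 0.54 (SD 0.43) in metastases. Its groups overlapped, and the difference between disseminated cells and adenomas was -1.12 (95% interval -2.01 to -0.22, limma adjusted p = 0.0749). That difference was 1.22 in 1 of the 3 shared slides and as low as -2.38 in another. Disseminated replicate 4 was the highest of its group at 1.60, and without it Dnmt3b was called lower in disseminated cells than in adenomas (-1.42, adjusted p = 0.0139) and than in carcinomas (-1.05, adjusted p = 0.0439). Without adenoma replicate 3, the lowest adenoma, Dnmt3b was called lower than in adenomas both in disseminated cells (-1.54, adjusted p = 0.0133) and in metastases (-1.11, adjusted p = 0.0472). Dnmt3l, the cofactor without catalytic activity (A_51_P496720, chromosome 10, 77717971 to 77718030, plus strand), had means of 0.00 in adenomas and 0.37, 0.40 and 0.41 in the later stages. It was well above background on every array, and its differences from adenomas of 0.36 to 0.41 had limma adjusted p-values of 0.0693 to 0.141. These differences lay near the threshold. The one in disseminated cells was called with Aquantile, with no normalization between arrays, with the deposited ratios (0.49, adjusted p = 0.0487) and without disseminated replicate 6 (0.48, adjusted p = 0.0372). That in metastases was called under the same normalizations, with median centring, with the deposited ratios (0.52, adjusted p = 0.0267) and without metastases replicate 3 (0.50, adjusted p = 0.0381). That in carcinomas was called when only these groups were fitted (adjusted p = 0.0428).

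**Figure D4:**
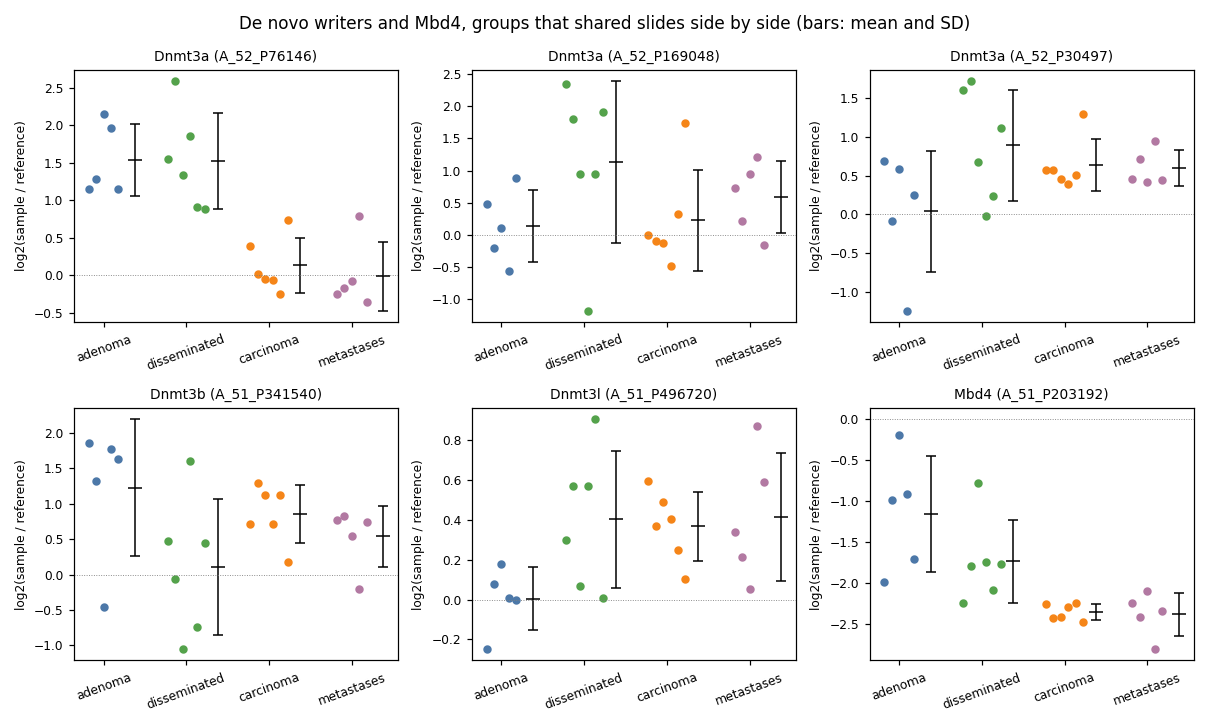
Log2 ratio of sample to reference (y axis, log2 scale) of the 3 Dnmt3a probes, Dnmt3b, Dnmt3l and Mbd4, with the groups that shared slides placed side by side (adenoma with disseminated, carcinoma with metastases). Points are arrays and bars the mean and SD. The first Dnmt3a panel splits into 0.89 to 2.59 and -0.35 to 0.79 between the slide sets.

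Among the readers, Mbd3 was called in the 3 comparisons that include metastases and in no other. Its probe (A_51_P398004, mm7 chromosome 10, 80183845 to 80183905, minus strand) read -2.43, -2.31, -2.26, -2.36 and -2.45 in adenomas. Carcinomas lay between -2.28 and -1.69 (median -1.82) and disseminated cells between -2.68 and -1.23 (median -2.25). Metastases read -1.06, -0.51, 0.03, -0.68 and -0.68, and each of these lay above all 17 other samples. Metastases were 1.78 above adenomas (SE 0.21, limma adjusted p = 1.42e-05, 3.44-fold), 1.34 above carcinomas (SE 0.20, adjusted p = 0.000296) and 1.54 above disseminated cells (SE 0.20, adjusted p = 0.000152). Within the 3 slides shared with carcinomas the difference was 1.16 to 1.49. Adenomas, disseminated cells and carcinomas followed in rising order of their means of -2.36, -2.12 and -1.93, and no pair of these passed the test, although carcinomas were called above adenomas (0.44, adjusted p = 0.028) when only these groups were fitted.

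The macrophage mean of the 5 metastases, in the same order of replicates as the Mbd3 values, was 3.77, 1.0, 4.55, 5.23 and 1.37. Disseminated cells, whose macrophage means began at 3.38, had a mean Mbd3 of -2.12. Of 7 alveolar macrophage genes 5, of 9 endothelial genes 4 and of 9 lung epithelial genes 3 were also higher in metastases than in adenomas. Of 9 neutrophil genes 3 were higher and 1 was lower. Lower were also 4 of 8 fibroblast, 2 of 10 T and NK cell, 2 of 6 B cell and 2 of 16 mammary epithelial genes. Of all probes, 27.5% were called. The part of macrophages and of these other cell types in the Mbd3 values was not tested. Without the 4 arrays that stood apart, metastases exceeded carcinomas by 1.32 (limma adjusted p = 0.00011).

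Mbd2, the methyl-CpG reader that takes the place of Mbd3 in NuRD, was higher in metastases at 1 of its 2 probes. At the first (A_52_P347287, mm7 chromosome 18, 70974943 to 70975002) adenomas read -2.08, -1.47, -0.88, -1.93 and -1.79, carcinomas lay between -2.11 and -1.28 (median -1.57) and disseminated cells between -2.22 and -0.55 (median -1.79). Metastases read -0.51, -0.39, 0.07, -0.70 and -0.81, above all adenomas and carcinomas but not above the highest disseminated sample. The group means of the 3 other stages were -1.63, -1.61 and -1.62. Metastases exceeded adenomas by 1.16, carcinomas by 1.14 and disseminated cells by 1.15 (SE 0.26 to 0.27, limma adjusted p = 0.00371, 0.0049 and 0.00678), and within slides they exceeded carcinomas by 0.93 to 1.40. The call against disseminated cells was lost when only these groups were fitted. The second probe lies 13562 bases away (A_51_P256337, 70988505 to 70988564) and was well above background in the sample channel on 0 of 5 adenomas, 1 of 6 carcinomas, 1 of 6 disseminated samples and 2 of 5 metastases. Its group means lay between -0.32 and -0.03 and it was called in no comparison. With the scanner software's processed signals it was called higher in metastases than in carcinomas (1.23 against 0.24 here, adjusted p = 0.022), and at this signal it says little of the level of Mbd2.

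Mbd1, a methyl-CpG binding repressor, gave 3 different patterns at its 3 probes. The probe at mm7 chromosome 18, 74676401 to 74676460 (A_52_P158923) read 0.43, 0.14, 0.57, -0.06 and 0.70 in adenomas and between -1.14 and 0.46 (median 0.08) in carcinomas. Disseminated cells lay between -0.15 and 1.04 (median 0.60), and metastases read 1.27, 1.91, 1.64, 1.39 and 2.37, above every other sample. Metastases exceeded adenomas by 1.36, carcinomas by 1.80 and disseminated cells by 1.19 (SE 0.27 to 0.29, limma adjusted p = 0.0017, 0.000335 and 0.00761), and carcinomas within slides by 1.0 to 2.37. Disseminated cells were called above carcinomas at this probe without disseminated replicate 2 (0.74, adjusted p = 0.0461). The probe that starts 473 bases away (A_51_P143224, 74676874 to 74676933) had means of 1.83 in adenomas, 1.14 in carcinomas, 1.03 in disseminated cells and 1.26 in metastases, and was called in no comparison. Its disseminated samples did not overlap the adenomas, at a change of -0.81 with a limma adjusted p of 0.0749. That difference was called when only these groups were fitted (adjusted p = 0.0128) and without the 4 arrays that stood apart (-0.80, adjusted p = 0.0336). Without metastases replicate 5 it was called lower in metastases than in adenomas (-0.87, adjusted p = 0.0275).

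The third Mbd1 probe (A_52_P131423, 74663928 to 74663987), named from a cDNA clone, lies apart from the others, at distances of 12473 and 12946 bases. It stood far above the reference and read 4.04, 5.48, 5.85, 4.13 and 4.21 in adenomas, between 2.98 and 5.41 (median 4.28) in carcinomas and between 1.77 and 3.62 (median 2.47) in disseminated cells. Metastases read 3.35, 3.42, 4.37, 1.32 and 4.15. Disseminated cells were lower than adenomas (change of -2.26, limma adjusted p = 0.00557), with no overlap and with values from -2.77 to -2.23 within slides, and lower than carcinomas (change of -1.81, adjusted p = 0.0103). In metastases it was called lower than in adenomas only when adenoma replicate 1, metastases replicate 3 or metastases replicate 5 was left out (-1.68 to -1.60), with normexp at offset 0, without dim probes or with the replicate block. Both calls were lost when the arrays were normalized by Aquantile or not at all between arrays. The correlations between the 3 probes were 0.681, 0.282 and -0.15, and 10 of 18 exact permutation tests between them passed at an adjusted p below 0.05 over the 48, so no single direction is given for Mbd1. In disseminated cells the mean of the mammary epithelial genes was 1.76 (SD 1.22) against 3.11 (SD 0.21) in adenomas, and its part in the lower Mbd1 value there was not tested.

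**Figure D5:**
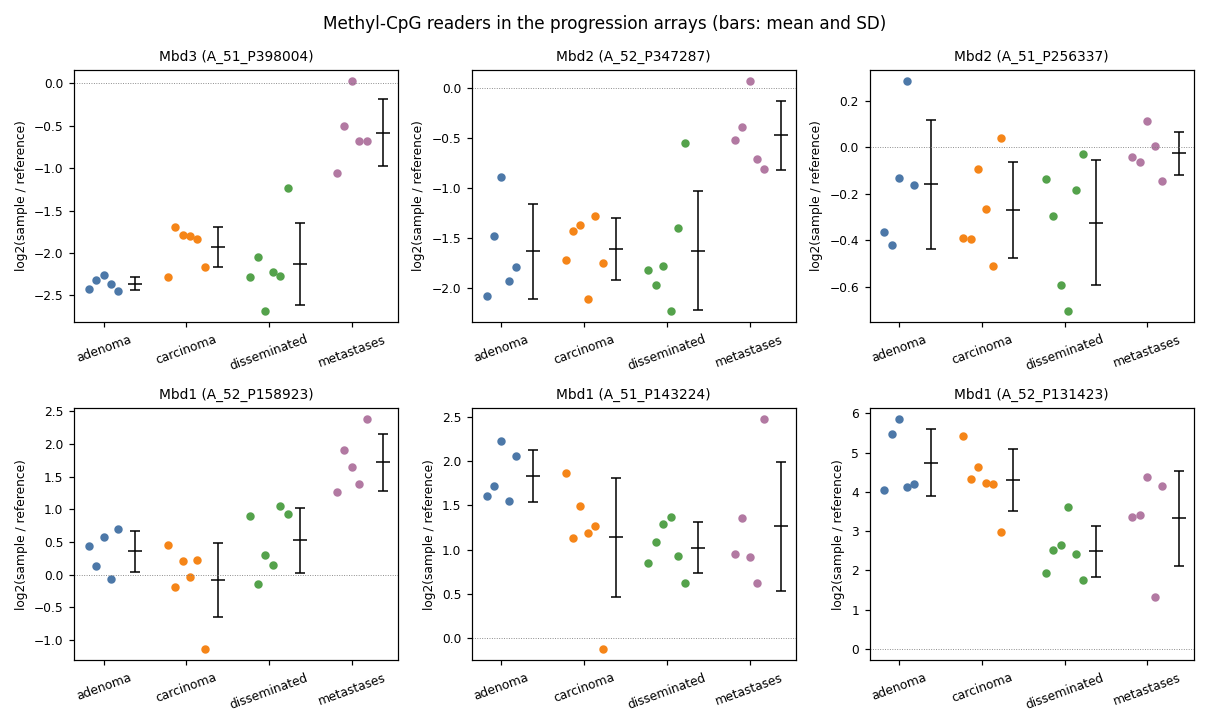
Log2 ratio of sample to reference (y axis, log2 scale) of Mbd3, the 2 Mbd2 probes and the 3 Mbd1 probes in the 4 progression groups. Points are arrays and bars the mean and SD. Metastases stand highest for Mbd3 (mean -0.58), for the first Mbd2 probe (mean -0.47) and for Mbd1 A_52_P158923 (mean 1.72), and disseminated cells lowest for Mbd1 A_52_P131423 (mean 2.49).

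Mbd4, the glycosylase among the readers, was lower in carcinomas and metastases than in adenomas. Its probe (A_51_P203192, mm7 chromosome 6, 115868170 to 115868229, minus strand) was well above background on 4 of 5 adenomas, 5 of 6 carcinomas, all disseminated samples and 4 of 5 metastases, and read -1.99, -0.98, -0.19, -0.91 and -1.71 in adenomas. Carcinomas lay closely between -2.48 and -2.25 (median -2.35), disseminated cells between -2.25 and -0.78 (median -1.78), and metastases read -2.25, -2.42, -2.10, -2.81 and -2.35. Carcinomas and metastases did not overlap the adenomas, and disseminated cells overlapped them. The change from adenoma was -1.20 in carcinomas and -1.23 in metastases (SE 0.26 and 0.27, limma adjusted p = 0.00682 and 0.00257), and -0.58 in disseminated cells (adjusted p = 0.131), which was called without adenoma replicate 1 (-0.79, adjusted p = 0.0373) or without disseminated replicate 3 (-0.77, adjusted p = 0.0356). The called comparisons of Mbd4 both run across the slide sets, where stage and scan day cannot be told apart, and the call for carcinomas was lost when the arrays were normalized by Aquantile or not at all between arrays. Within slides, disseminated cells differed from adenomas by values from -1.58 to -0.09 and metastases from carcinomas by -0.19 to 0.13.

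Genes that work with the members were counted from lists, and these counts stand beside shares of all probes called of 11.5, 18.2 and 27.5% in carcinomas, disseminated cells and metastases against adenomas and 21% in metastases against carcinomas. Of 9 further NuRD subunits, none was called higher in metastases than in adenomas and 5 were called lower, among them the remodelling ATPase Chd4 (change of -1.61) and Mta1 (change of -1.56, limma adjusted p = 1.3e-05). Against carcinomas 1 of these 9 was higher, Mta2 (0.89), and 4 were lower, among them Chd3 (-1.69) and the histone chaperone Rbbp4 (-1.44). The 9 leave out Hdac1 and Hdac2, also members of NuRD, which were counted with the 10 partners of methylation below. Of those 10 partners, 3 were higher and 1 was lower in metastases than in carcinomas. The mean of the 9 was 0.01 in adenomas, -0.13 in carcinomas, -0.46 in disseminated cells and -0.59 in metastases. Against adenomas, Mbd3 was thus higher in metastases while 5 of these 9 subunits were lower. Against disseminated cells, where Mbd3 was higher by 1.54, 1 of the 9 was lower and 0 were higher, beside 12.9% of all probes called. Both of these comparisons run across the scan days. Rbbp4 was also lower in disseminated cells than in carcinomas (change of -1.36, adjusted p = 0.000989).

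Of 7 other genes whose products read methylated or hemimethylated CpG, 2 were higher in metastases than in adenomas, Zbtb33, known as Kaiso (1.34), and the Uhrf1 relative Uhrf2 (0.66), and 3 were lower, among them Mbd6 (-2.01) and Zbtb38 (-1.23). Zbtb38 was also lower in carcinomas (-0.81) and in disseminated cells (-0.72, limma adjusted p = 0.00267). It was well above background in no metastasis, so the size of its fall there is uncertain. Of 10 partners of methylation, 2 were lower in carcinomas than in adenomas, the H3K9 methyltransferase Ehmt2 (-1.14) and the deubiquitinase Usp7 (-0.63), which stabilises Dnmt1. In disseminated cells 1 was higher, Dppa3 (1.94), and 3 were lower. Dppa3 was well above background in no adenoma, so this rise was measured from near background. In metastases 2 were higher, the replication clamp Pcna (2.26, adjusted p = 0.00333) and the polycomb enzyme Ezh2 (1.28), and 4 were lower, among them Ehmt2 (-1.96) and the corepressor Trim28 (-0.99). The rise of Pcna stood beside the 19 of 29 cell cycle genes that were lower in the same comparison.

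Of 8 genes of active demethylation with a probe (Tet1 and Tet3 had none under these names), none was called in carcinomas against adenomas and 1 was lower in disseminated cells, the thymine DNA glycosylase Tdg (-0.71). In metastases against adenomas 3 were higher, among them the isocitrate dehydrogenases Idh1 (1.44) and Idh2 (1.19), which make the cosubstrate of Tet enzymes, and 1 was lower, Tdg (-0.73). Tet2 was higher than in carcinomas both in disseminated cells (1.48, limma adjusted p = 0.00998) and in metastases (1.29, adjusted p = 0.0313). Of 10 genes of the methyl donor cycle, 4 were higher in metastases than in adenomas, among them Mat2b (1.93) and Mat2a (1.11), subunits of the enzyme that makes S-adenosylmethionine, and 3 were lower, among them the folate enzyme Shmt2 (-1.06). Mat2b and Mat2a were also higher than in carcinomas (1.58 and 0.98), where 3 genes of the list were called higher and none lower, a share near that of all probes.

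Chemotherapy was a separate experiment, normalized separately, and its levels are not set against those above. No member probe was called in any of the 3 comparisons in limma, where 0.17% of all probes were called for residual against untreated tumors, 0.00486% for relapsed against untreated and 0.236% for relapsed against residual tumors. At an unadjusted p below 0.05 limma counted 1, 0 and 2 of the 15, against 8.85%, 7.62% and 7.37% of all probes. The lowest adjusted p of a member was 0.538, 0.679 and 0.656.

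Uhrf1 had the largest differences of the members between residual tumors and the other groups, and they did not pass the test. Its second probe lay between -2.21 and 0.26 (median -1.57) in untreated tumors and between -3.28 and -1.09 (median -2.61) in residual tumors, and read -1.97, -0.91, -0.56 and -1.47 in the 4 relapsed tumors. The highest untreated tumor, replicate 5, stood above every treated one, and the groups overlapped. The residual tumors were lower than untreated by -0.99 (95% interval -1.93 to -0.05, limma adjusted p = 0.538), the relapsed tumors differed from residual by 1.05 (0.01 to 2.10, adjusted p = 0.676) and from untreated by 0.06 (-0.98 to 1.11). At the first probe the same 3 differences were -0.88, 0.90 and 0.02, and the probes had a correlation of 0.996 over the 16 arrays. Only slide 2 held both untreated and residual tumors (1 and 2 arrays), with a difference of -2.27 at the second probe. The mean of the 29 cell cycle genes was -1.87 in the untreated group, -2.36 in the residual group and -2.0 in the relapsed group, with none of the 29 called in any of the 3 comparisons. After the group means were subtracted, its correlation over the 16 arrays was 0.941 with the second Uhrf1 probe, 0.82 with Mbd4 and 0.668 with Dnmt1.

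No other member passed the test between the chemotherapy groups either. Dnmt1 had means of -0.18 in untreated (SD 0.36), -0.33 in residual (SD 0.24) and -0.32 in relapsed tumors (SD 0.25). Mbd3, whose level rose in metastases, had means of -1.27, -1.24 and -1.37, and its residual minus untreated difference of 0.03 had a 95% interval of -0.38 to 0.44. Mbd4 had means of -0.75, -0.92 and -0.91. The Dnmt3a probe that followed the scan day in the progression arrays had means of -0.92, -1.22 and -1.26 here, where all arrays were scanned on 1 day. The other Dnmt3a probes lay between 0.39 and 0.68, Dnmt3b between 0.53 and 0.71, and Dnmt3l between -0.52 and -0.20. Means of the first Mbd2 probe lay between -0.37 and -0.23. Those of the Mbd1 probes were 0.53, 0.44 and 0.33 for A_51_P143224, 0.80, 0.79 and 0.84 for A_52_P158923, and 3.95, 3.62 and 3.22 for A_52_P131423. This last probe differed by -0.73 between relapsed and untreated tumors, with a 95% interval of -1.72 to 0.26. For the 12 probes other than this one and those of Uhrf1, the 95% intervals lay between -0.62 and 0.81 for residual against untreated tumors, between -0.70 and 0.80 for relapsed against untreated and between -0.61 and 0.52 for relapsed against residual tumors. The dim Mbd2 probe was well above background on 2 of 6 untreated, 3 of 6 residual and 1 of 4 relapsed tumors.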

How the data were processed

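Sample RNA was labeled with Cy5 and the Universal mouse reference with Cy3 on 38 Agilent two-color arrays, without dye swaps. Values were computed from the intensities that the authors deposited as Feature Extraction 10.7 wrote them, unnormalized, with a mean signal and a median local background for each spot and channel. The deposited log2 ratios, for which the authors had applied normexp and loess, served as an alternative. Probe positions are those in the array files (build mm7), and promoter windows are from RefSeq (GRCm38.p6).

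The packages limma 3.58.1 and statmod 1.5.0 were run in R 4.3.3, and files were read with the package data.table (version 1.17.8). Normexp corrected the background at an offset of 50 (the authors' offset is not given in the sources used here), loess normalized each array, and quantiles were then equalized over all arrays of the same experiment. Control spots and spots that the scanner software marked as uneven outliers were left out, and the spots of a probe (43379 on an array without controls) were averaged to 41174 probes. Of these probes, 22951 were named through the accession numbers of the reference table and 18223 by the file. Each experiment was fitted in 1 limma model over its groups without covariates, two-sided, with Benjamini-Hochberg adjustment over all probes. Differences between probes of a gene were tested by exact permutation of the arrays, adjusted over 48 tests. A list gene was read from its brightest probe. The procedure was tested on simulated data. The number of arrays limits the precision, and between 48.4 and 78.9% of spots were well above background in the sample channel of an array. The share was 48.4 to 75.5% in adenomas, 67.5 to 76.7% in carcinomas, 63.8 to 76% in disseminated cells and 70.2 to 78.9% in metastases. The background mean that normexp fitted was -1533.3 and -603.6 in adenoma replicates 2 and 3. It was -541.5 in carcinoma replicate 6, -265.3 in metastases replicate 4 and between -61.4 and -8 in the other arrays.

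Groups came from the sample labels. The numbers of replicates were not used to pair the samples. Of same-numbered pairs, 8 of 31 in the progression arrays and 6 of 14 in the chemotherapy arrays had deviations that correlated above 0.1. The best match was the array of the same number in 5 of the 31 and 5 of the 14. These counts cannot show that the samples were unpaired, and a block for replicate number was run as an alternative. The genes named are all members, at most 2 rises and 2 falls per list and comparison, and the 5 genes most like Dnmt1 and like Uhrf1. The members and lists were chosen with earlier results of these data known, and 5 of the 167 list genes had no probe under their name. A list gene that this rule names is not reported here.

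Alternatives were other background corrections and normalizations, the deposited ratios, dim probes left out, 1 probe per gene, blocks for slide or for replicate number, fits of only the groups compared, a plain t-test with equal variances, a stricter threshold and each replicate left out. Leaving out spots with a local background over 2 times the array's median, and leaving out the 4 arrays with a median correlation below 0.8 with their group, were chosen after seeing the data.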

Additional observations from a re-analysis of the deposited data

Results flagged for a closer look

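Of the 105 combinations of a member probe and a group, 9 held an array that stood apart from the rest of its group by Dixon's criterion, and chance sets apart about 1 in 20 groups. Carcinoma replicate 6 was highest of its group at 2 Dnmt3a probes, with 1.74 against a nearest value of 0.32 at A_52_P169048 and 1.29 against 0.58 at A_52_P30497. The same array was lowest for Mbd1 A_51_P143224, at -0.12 against 1.13. Metastases replicate 4 was highest for Dnmt3a A_52_P76146, at 0.79 against -0.08, and lowest for Dnmt3b, at -0.20 against 0.55. These 2 arrays had the highest macrophage means of their groups, 4.99 and 5.23, and that part of the difference was not tested. Adenoma replicate 3 read -0.45 for Dnmt3b against 1.32 in the next adenoma. Disseminated replicate 3 read -0.78 for Mbd4 against -1.75. In the chemotherapy arrays, relapsed replicate 4 read -1.63 at Dnmt3a A_52_P76146 against -1.16, and residual replicate 2 read -1.58 for Mbd3 against -1.26.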

How the results depend on the processing

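No called member probe changed sign under any alternative, and of the recomputed changes of called probes 684 stayed called and 11 did not. These counts hold both Aquantile and no normalization between arrays. Aquantile leaves the log2 ratios as they are, so these settings gave the same values and form a single check. The 3 calls of Mbd3, the 3 of Dnmt1 and the 6 of Uhrf1 were kept under every alternative run, each left-out replicate included. A plain t-test lost the calls of Dnmt3a A_52_P76146, Mbd1 A_52_P158923 and Mbd2 A_52_P347287 for metastases against disseminated cells, gained Dnmt3l and Mbd3 for carcinomas and Mbd1 A_51_P143224 for disseminated cells against adenomas, and called 0 member probes after chemotherapy. The other lost calls are given beside their results, except that of Mbd1 A_52_P131423 for disseminated cells against carcinomas at an adjusted p below 0.01. Calls gained that are not given there were Mbd4 for metastases against disseminated cells (-0.92) and Mbd1 A_52_P158923 for disseminated cells against carcinomas (0.75) with the deposited ratios, and Mbd4 for disseminated cells against carcinomas (0.62) with only these groups fitted. Without the 4 arrays that stood apart, Dnmt3a A_52_P169048 (-1.08) and Mbd1 A_52_P131423 (1.44) were gained for metastases against disseminated cells, and Dnmt3b for disseminated cells against carcinomas (-1.34). The number of member probes called in disseminated cells against carcinomas was 1 in place of 2 with Aquantile or no normalization between arrays, with 1 probe per gene and at an adjusted p below 0.01, and 5 without the 4 arrays that stood apart. Disseminated cells against adenomas gave 2 with 1 probe per gene and 9 without those 4 arrays, in place of 4. Metastases against disseminated cells gave 1 in place of 4 under a plain t-test. The cause of these shifts was not tested. With each replicate left out in turn the counts were 5 in carcinomas, 4 to 7 in disseminated cells and 8 to 10 in metastases against adenomas, 2 to 4 in disseminated cells and 3 to 4 in metastases against carcinomas, 4 for metastases against disseminated cells, and 0 in the 3 chemotherapy comparisons. With the replicate number as a block, metastases against adenomas gave 9 member probes in place of 8 and the other 8 comparisons gave the same counts. Medians of all probes stayed within 0.1 of 0 on the log2 scale under every setting, from -0.10 to 0.07.

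Counts over all probes moved more. Over the alternatives they ran from 1536 to 6808 in carcinomas (4724 in the main analysis), 2993 to 11325 in disseminated cells (7503) and 6304 to 13142 in metastases (11322) against adenomas. They ran from 5221 to 13393 in disseminated cells (10186) and 3986 to 11351 in metastases (8666) against carcinomas, and from 369 to 10196 for metastases against disseminated cells (5303). In the chemotherapy arrays they ran from 1 to 93 for residual (70) and 0 to 17 for relapsed (2) against untreated tumors, and from 17 to 124 for relapsed against residual tumors (97). The first of these was 1 with slide as a fixed block, 64 with slide as a random block and 3 with the replicate number as a block.

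A ratio to reference RNA gives no absolute amount, and the array measures RNA, not methylation or protein. Levels near background, as at the dim Mbd2 probe, limit what can be seen. Scan day and stage cannot be told apart outside metastases against carcinomas and disseminated cells against adenomas.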
